A study of Homo sapiens with 2 samples.

Results

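The 57 genes described here copy DNA or serve its copying in S phase. They were chosen by name from known function, not by a rule on their values, though with earlier results of these data known. They cover origin licensing, the replication fork, nucleotide supply and the chromatin of S phase. All 57 were among the 12014 listed rows, and 56 of them had a mean FPKM of at least 1 over the libraries, the minimum set for a gene to be tested, as did 10702 of 12007 gene symbols. FPKM, fragments per kilobase of transcript scaled to the mapped fragments of the library, is a level per transcript length. GINS4, a subunit of the GINS complex, was listed at 0.434 FPKM in the control and 0.716 FPKM in the other library, below that minimum.

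Cells prepare origins in G1, when the origin recognition complex, CDC6 and CDT1 load the MCM helicase onto DNA. In S phase CDC45 and GINS switch the helicase on, polymerases held by the PCNA clamp copy both strands, and nucleotides and new histones are supplied in step. Many of these genes carry binding sites for E2F, the family of factors that RB restrains until cells commit to divide, and their messages are known to be most abundant around the start of S phase.

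RNA was sequenced from ACHN cells, an established human renal cell carcinoma line, in 1 library with shKIAA1429 and 1 library with the control shNC. KIAA1429, also called VIRMA, is a scaffold of the complex that writes N6-methyladenosine on RNA. The labels call the first library a knockout, while the study's methods describe a short hairpin RNA in stable lines selected with puromycin, and which hairpin was sequenced is not given in the sources used here. With 1 library per group no difference below has a replicate check, so no p-value or error is given and values compare 2 libraries, not conditions. In bulk RNA, more cells in S phase and more RNA per S phase cell cannot be told apart. By flow cytometry the study reported an increase in G1 and a decrease in G2/M in its knockdown cells, and it reported weaker proliferation. How those assays relate to the RNA values here was not tested.

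VIRMA stood at 3.92 FPKM with shNC and 3.22 FPKM with shKIAA1429, a log2 change of -0.22, which was close to that of ACTB at -0.25 and GAPDH at -0.31. The log2 change used throughout is that of FPKM + 1 with shKIAA1429 over shNC, so it understates the change of low genes. MYC, the transcription factor the study followed, stood at 28.5 and 4.53 FPKM, a log2 change of -2.42. Summed FPKM over listed genes was 283046 with shNC and 249409 with shKIAA1429, and 13 mitochondrial genes held 42.2% and 34.6% of these sums, which left 163587 and 163171 FPKM for the other genes. Total read counts are not given in the sources used here, so the depth behind the values is unknown. The renal markers PAX2, PAX8, KRT8 and KRT18 stood at 31.4 to 78.3 FPKM with shNC, CDH6 was not listed, and VIM, a filament that is also a mesenchymal marker, stood at 368 FPKM. Of 7 markers of other cell types, PTPRC, CD3E, PECAM1, VWF and DCN were not listed, and CD68 and COL1A1 stood at 3.87 and 1.08 FPKM with shNC.

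Most of the replication and S phase genes were higher in the shKIAA1429 library, and the differences were small. Claspin (CLSPN), which carries the checkpoint signal from stalled forks, and the origin licensing factor CDC6 showed the highest log2 changes, 0.91 and 0.87. CDT1, the partner of CDC6 in loading the helicase, showed the lowest at -0.50. The median over the 56 tested members was 0.22, with quartiles of 0.06 and 0.48, against a median of 0.06 and quartiles of -0.15 and 0.27 over the 10702 genes tested.

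Log2 changes were above 0 for 45 of 56 members, or 80.4%, against 57.3% of genes tested. A log2 change above 0.5 was found for 12 members, or 21.4%, against 9.90% of genes tested. No member was lower by more than 0.5, where 6.12% of genes tested were. None lay past 1.5, which 0.383% of genes tested exceeded upward and 0.252% downward. The study's methods set 1.5 as a limit on the DESeq2 log2 fold change, together with a p-value. Here it was applied to the log2 change of FPKM + 1 alone. Among the 10151 genes whose mean FPKM lay within the range of the members, the median was 0.06, 57.8% were above 0 and 10.03% were higher by more than 0.5.

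**Figure D1:**
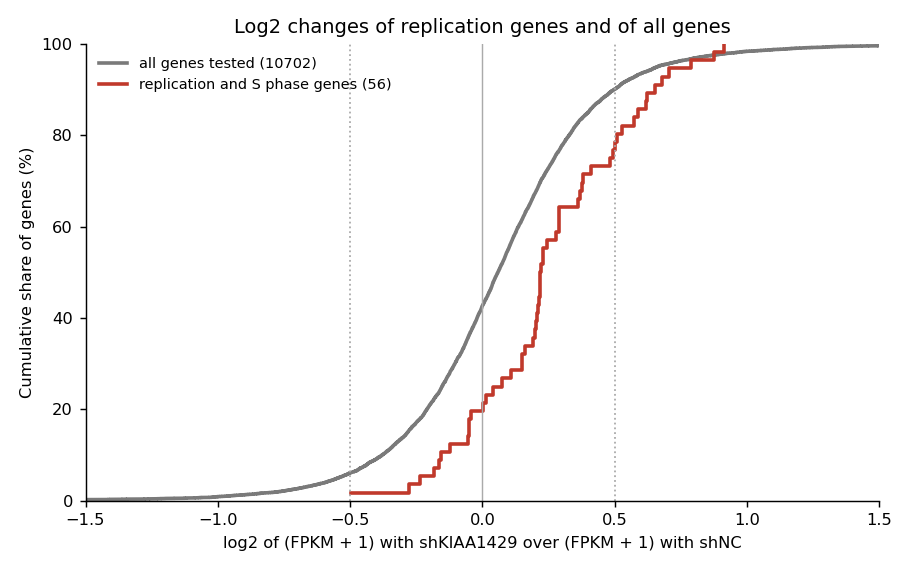
Cumulative share of genes (%) against the log2 change of FPKM + 1 with shKIAA1429 over shNC, for the 10702 genes tested (gray) and the 56 replication and S phase genes tested (red). Dotted lines mark changes of 0.5 in either direction, and the red line lies to the right of the gray one up to about the highest members, with medians of 0.22 and 0.06.

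The rule for the upper 12 was a difference over 0.5, and several members lay on its edge. FEN1 at 0.51 and MCM5 at 0.53 were the closest above it. PRIM2 at 0.50, POLD3 at 0.49 and UHRF1 at 0.48 were the closest below it, and CDT1 lay at the lower edge. A further 8 members were within 0.1 of 0.

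The 57 genes summed to 577 FPKM with shNC and 725 FPKM with shKIAA1429, an increase of 25.7%. Their share of the FPKM outside the mitochondrial genes was 0.353% and 0.444%. PCNA, the most abundant member, held 14.1% and 16.8% of their sum, and the sum without it was still 21.8% higher. PCNA, TYMS, TK1 and MCM6 gave 79.2 of the 148 FPKM added, or 53.5%.

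**Figure D2:**
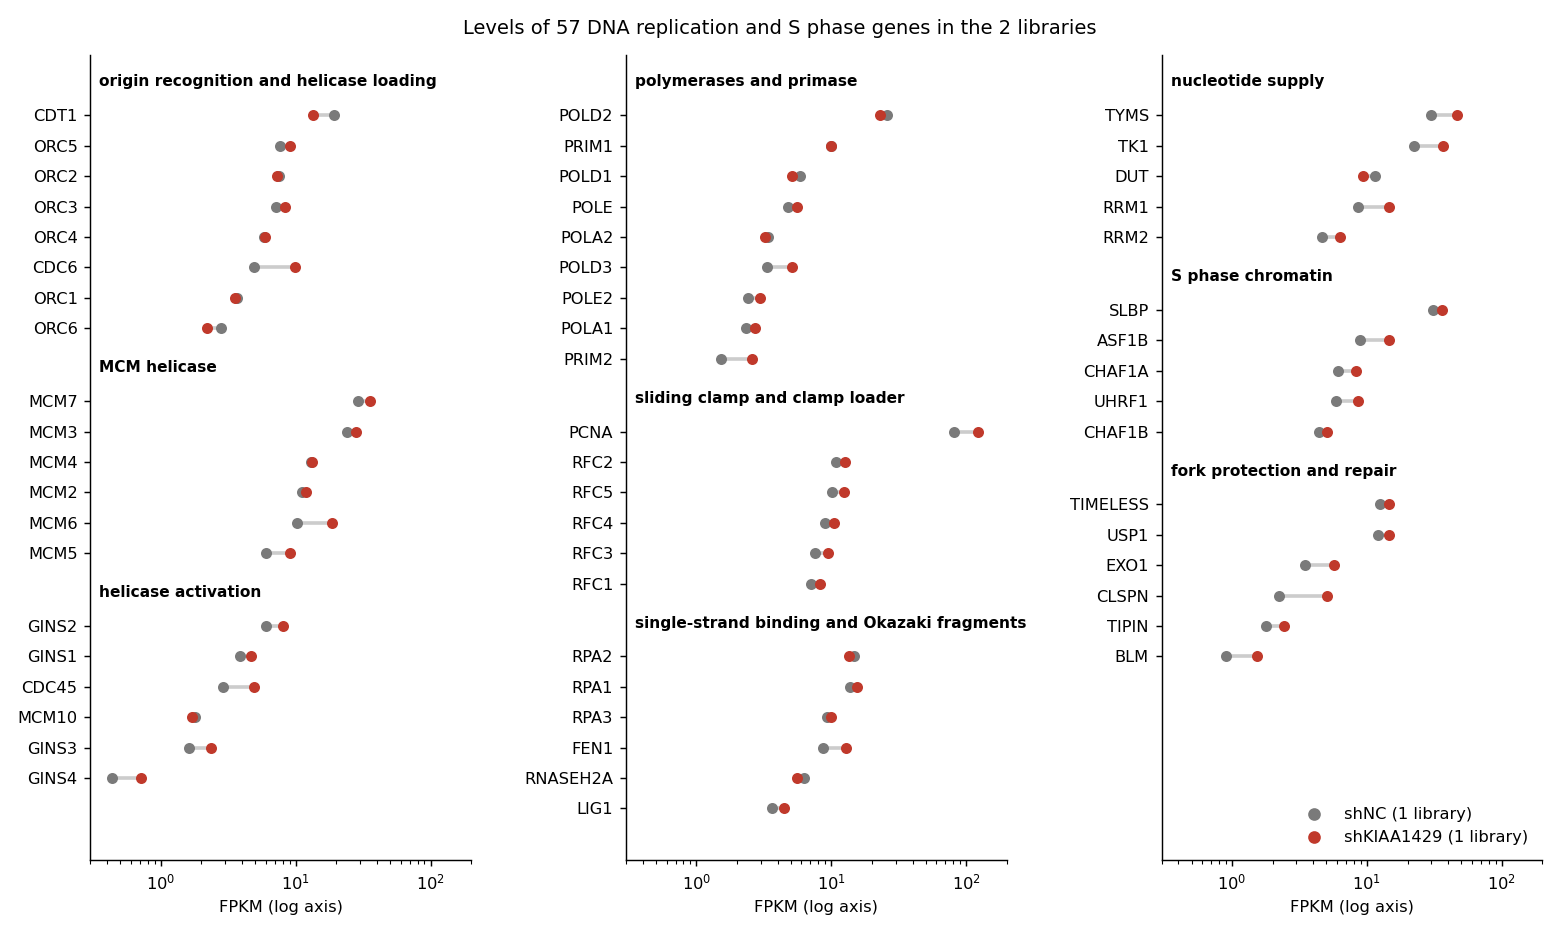
FPKM on a log axis of each of the 57 genes with shNC (gray) and shKIAA1429 (red), 1 library each, grouped by role and ordered by the shNC level. CDT1, DUT and ORC6 lie lower with shKIAA1429, and CDC6, MCM6, CLSPN and the PCNA, TYMS and TK1 genes lie higher.

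E2F words were searched in RefSeq promoters of build GRCh38.p14, each holding 250 bases before and 50 after a gene start. The table had promoters for 51 members, with GINS4, MCM4, MCM5, POLD3, RPA2 and RPA3 not among them. The words were TTTCCCGC, TTTCGCGC, TTTGCCGC and TTTGGCGC on both strands. At least 1 of these words was found for 23 of the 51 members, or 45.1%, against 6.88% of 8457 tested genes with a promoter. A gene with several promoters counted if any of them held a word. Counted by promoter, the share was 34.8% of 69 promoters of members and 3.31% of 35116 promoters in the table. The 8 windows below, of 30 bases each, show the word nearest the gene start for the members past 0.5 that hold one and for CDT1 and DUT, the members with the lowest log2 changes. Sequences read 5′ to 3′ on the strand of the gene, and capitals mark each E2F word within the window in either orientation, with an overlapping pair in that of MCM6.
CLSPN: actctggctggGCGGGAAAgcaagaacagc
CDC6: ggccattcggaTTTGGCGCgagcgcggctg
MCM6: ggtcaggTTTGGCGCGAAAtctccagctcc
TYMS: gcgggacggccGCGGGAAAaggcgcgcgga
EXO1: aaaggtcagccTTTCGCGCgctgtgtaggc
PCNA: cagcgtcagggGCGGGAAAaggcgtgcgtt
CDT1: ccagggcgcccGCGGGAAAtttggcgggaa
DUT: gaaatttcggtTTTGGCGCgctccctgcgg

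The CLSPN window lies at chr1:35769965-35769994 on the minus strand and its word begins 5 bases before the gene start. The windows of MCM6, at chr2:135876511-135876540, and PCNA, at chr20:5126663-5126692, are also on the minus strand. Those of CDC6 at chr17:40287875-40287904, TYMS at chr18:657603-657632, EXO1 at chr1:241848197-241848226, CDT1 at chr16:88803743-88803772 and DUT at chr15:48332159-48332188 are on the plus strand. Counted from 1 at the start, the words of CDC6 and EXO1 begin at bases 8 and 5, and those of TYMS, PCNA and CDT1 begin 39, 59 and 35 bases before it. MCM6 held 4 E2F words, more than any other member shown here. The genes with the highest and the lowest log2 changes thus carried the same kind of word, and CLSPN, TYMS, PCNA and CDT1 carried the same word, in the same orientation.

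Across the members with a promoter in the table, the 23 with an E2F word had a median log2 change of 0.29 and 6 of them were higher by more than 0.5. The 28 without one had a median of 0.21 and 5 were higher by more than 0.5. TK1, RRM1, ASF1B, CDC45 and FEN1 were those 5. Over genes tested the medians were 0.10 for the 582 with a word and 0.06 for the 7875 without, and 8.93% and 10.21% were higher by more than 0.5. A match is a description of letters and not of binding.

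Other promoter words were spread differently. CHR words, TTTGAA or TTCGAA, which are known from genes of G2 and mitosis, were held by 5 of 51 members (9.80%) and by 14.8% of tested genes. The 5 members had a median log2 change of 0.65 and 3 were higher by more than 0.5, and the 46 without a CHR word had a median of 0.22 and 8. Over tested genes 13.6% of those with a CHR word and 9.52% of those without were higher by more than 0.5. Of 59 mitosis and G2/M genes with a promoter, 42 (71.2%) held a CHR word and 4 (6.78%) an E2F word. The E-box CACGTG, known as a site for MYC and MAX, was held by 7 of 51 members (13.7%) and 13.3% of tested genes. The 7 members with an E-box had a median log2 change of 0.20 and the 44 without one 0.23. CCAAT was held by 62.7% of members, 43.4% of tested genes and 76.3% of the mitosis and G2/M genes.

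**Figure D3:**
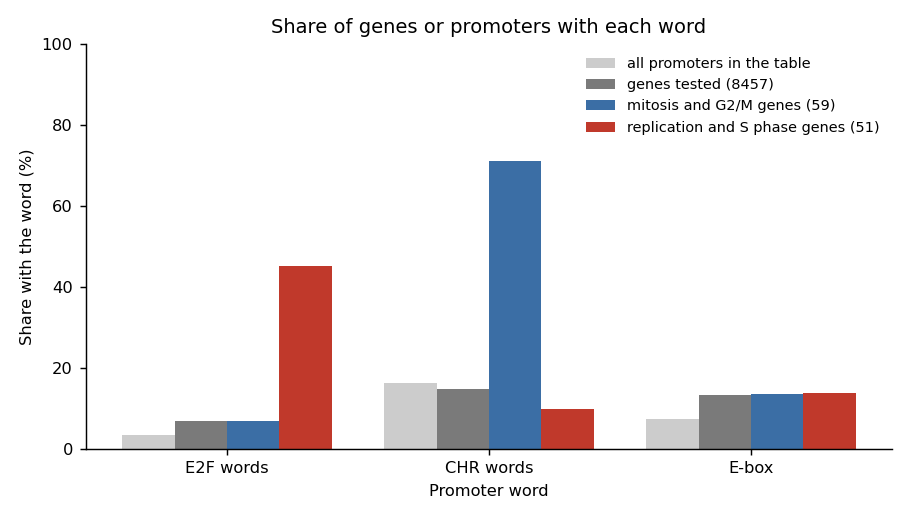
Share (%) of promoters in the RefSeq table (light gray), tested genes (dark gray), mitosis and G2/M genes (blue) and replication and S phase genes (red) that hold at least 1 E2F word, CHR word or E-box in a 300-base promoter. E2F words stand at 45.1% of the replication and S phase genes and 6.78% of the mitosis and G2/M genes, and CHR words at 9.80% and 71.2%.

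Origin recognition and helicase loading was the group with the widest spread. CDC6, the ATPase that recruits the helicase to origins, stood at 4.91 FPKM with shNC and 9.82 FPKM with shKIAA1429, a 2.00-fold difference in FPKM. CDT1, which delivers the helicase and is held in check by geminin, stood at 19.3 and 13.3 FPKM. The level of CDC6 was 0.255 times that of CDT1 with shNC and 0.736 times with shKIAA1429.

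The subunits of the origin recognition complex did not share a direction. ORC6, a subunit that joins the core complex loosely, stood at 2.78 and 2.20 FPKM, a log2 change of -0.24. ORC5 at 7.66 and 9.07 FPKM and ORC3 at 7.10 and 8.31 FPKM had log2 changes of 0.22 and 0.20. ORC1, ORC2 and ORC4 were within 0.1 of 0, and the sign of each turned in an alternative run. That was so for ORC1 and ORC2 when each library was rescaled to the same total, and for ORC4 when centered. The group of 8 had a median of -0.02, which became 0.15 when each library was rescaled to the same total, and its summed FPKM differed by 0.993%.

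The 6 MCM genes encode the ring of the replicative helicase, with 1 copy of each in the complex. All 6 were higher with shKIAA1429, where 57.3% of genes tested were, with a median log2 change of 0.25, though by unequal amounts. MCM6 stood at 10.3 and 18.4 FPKM and MCM5 at 6.001 and 9.10 FPKM, log2 changes of 0.79 and 0.53. MCM7, the most abundant at 28.8 FPKM with shNC, reached 35.4 FPKM, and MCM3 went with it at 24.1 and 28.0 FPKM.

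MCM2 and MCM4 differed least, at 11.1 and 12.01 FPKM and at 12.9 and 13.3 FPKM, and the log2 change of MCM4 turned below 0 when centered on the median of genes tested. MCM6 thus stood at 0.929 times the level of MCM2 with shNC and 1.54 times with shKIAA1429. The ratio of MCM7 to MCM5 was 4.80 and 3.90. Summed FPKM of the 6 genes was 24.8% higher.

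Helicase activation genes bind the loaded ring and start unwinding. CDC45, which travels with the helicase, stood at 2.87 and 4.95 FPKM, a log2 change of 0.62. GINS2 at 6.03 and 8.09 FPKM and GINS3 at 1.61 and 2.36 FPKM had log2 changes of 0.37 and 0.36, and GINS1 one of 0.23. MCM10, which helps the helicases part, stood at 1.80 and 1.70 FPKM.

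Polymerase and primase genes held no member past 0.5, where 9.90% of genes tested were higher and 6.12% lower. POLD3 and PRIM2 lay at its edge and passed it with a pseudocount of 0.1 and under both rescalings. The group had a median of 0.16 over 9 genes, and its summed FPKM was 1.45% higher. POLD1, the catalytic subunit of polymerase delta, stood at 5.89 and 5.07 FPKM and its partner POLD2 at 25.9 and 23.0 FPKM, log2 changes of -0.18 and -0.16. POLD3, a further subunit of the same enzyme, stood at 3.33 and 5.09 FPKM, a log2 change of 0.49.

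The subunits of polymerase delta therefore did not move as 1 unit. The level of POLD3 was 0.565 times that of POLD1 with shNC and 1.004 times with shKIAA1429. POLE and POLE2 of polymerase epsilon, which copies the leading strand, had log2 changes of 0.19 and 0.22. POLA1 and POLA2 of polymerase alpha had 0.16 and -0.04. PRIM1, the catalytic primase subunit, stood at 9.87 and 9.97 FPKM, while PRIM2, its large subunit, stood at 1.52 and 2.56 FPKM. NACA overlaps PRIM1 on the same strand at 27.9 and 31.3 FPKM, and FPKM summed over the pair gave a log2 change of 0.13. PRIM2 has a near-identical partial copy in the genome, so its reads may be split and its values are uncertain.

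PCNA, the clamp that tethers polymerases to DNA, was the most abundant gene of the 57. It stood at 81.5 FPKM with shNC and 121.8 FPKM with shKIAA1429, a log2 change of 0.57. The RFC genes, which encode the loader that opens the clamp, moved less and evenly, with log2 changes from 0.21 for RFC1 to 0.29 for RFC3. The level of PCNA was 11.6 times that of RFC1 with shNC and 14.7 times with shKIAA1429. All 6 clamp and loader genes were higher, where 57.3% of genes tested were, with a sum 39.1% higher.

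Genes for single-stranded DNA binding and Okazaki fragments had a median of 0.11. FEN1, the nuclease that trims Okazaki fragments, stood at 8.74 and 12.8 FPKM, a log2 change of 0.51. FADS2 overlaps it on the same strand and stood at 5.013 and 2.88 FPKM, so that FPKM summed over the pair gave a log2 change of 0.18. How reads in the overlap were shared between them is not given in the sources used here, and its part in the FEN1 value was not tested.

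LIG1, the ligase that seals the fragments, stood at 3.64 and 4.44 FPKM, a log2 change of 0.23. The trimer that coats single-stranded DNA was split, with RPA1 at 0.15, RPA3 at 0.07 and RPA2 at -0.12 on the log2 scale. RPA2 had the highest level of the group with shNC, 14.8 FPKM, and stood at 13.5 FPKM with shKIAA1429. RNASEH2A, the catalytic subunit of an RNase H that removes ribonucleotides from DNA, stood at 6.30 and 5.55 FPKM, a log2 change of -0.16.

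Nucleotide supply had the highest median of the role groups, 0.62 over 5 genes, and a summed FPKM 47.0% higher. RRM1, the large subunit of ribonucleotide reductase, stood at 8.54 and 14.6 FPKM, a log2 change of 0.71. TK1, the thymidine kinase of S phase, stood at 22.5 and 36.6 FPKM, and TYMS, which makes thymidylate, at 30.1 and 46.7 FPKM. Their log2 changes were 0.68 and 0.62, and TYMS overlaps ENOSF1 on the other strand.

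RRM2, the reductase subunit whose level follows S phase, stood at 4.66 and 6.35 FPKM, a log2 change of 0.38. AC007240.1 overlaps RRM2 on the same strand, and FPKM summed over the pair gave a log2 change of 0.43. The level of RRM1 was 1.83 times that of RRM2 with shNC and 2.29 times with shKIAA1429. DUT, which clears dUTP so that uracil is not built into DNA, stood at 11.5 and 9.30 FPKM and was the exception of the group, with a log2 change of -0.28. Its sign was the same in each alternative run.

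S phase chromatin genes were higher in 5 of 5, where 57.3% of genes tested were, with a median of 0.38. ASF1B, a histone chaperone tied to dividing cells, stood at 8.91 and 14.6 FPKM, a log2 change of 0.65. UHRF1, which brings the maintenance DNA methyltransferase to new DNA, stood at 5.85 and 8.56 FPKM. CHAF1A and CHAF1B, subunits of the chromatin assembly factor that deposits histones at the fork, had log2 changes of 0.38 and 0.15.

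MORC3 shares its strand and part of its span with CHAF1B, and FPKM summed over the pair gave a log2 change of 0.41. SLBP, which binds the stem-loop of histone messages, was the most abundant of the group, at 31.1 and 36.3 FPKM. Replication-dependent histone messages mostly lack a poly(A) tail, so poly(A) libraries measure their binding protein better than the histones themselves.

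Fork protection and repair genes were higher in 6 of 6, where 57.3% of genes tested were, with a median of 0.35. CLSPN stood at 2.23 and 5.08 FPKM, a 2.28-fold difference in FPKM. TIMELESS, which works with claspin at the fork, stood at 12.5 and 14.4 FPKM, a log2 change of 0.20, so the level of CLSPN was 0.179 times that of TIMELESS with shNC and 0.352 times with shKIAA1429. TIPIN, the partner of TIMELESS, stood at 1.80 and 2.42 FPKM.

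EXO1, an exonuclease of mismatch repair and end resection, stood at 3.45 and 5.69 FPKM, a log2 change of 0.59. BLM, the helicase lost in Bloom syndrome, was a low gene at 0.896 and 1.52 FPKM, 1.70-fold in FPKM and 0.41 on the log2 scale used. USP1, which removes ubiquitin from PCNA, stood at 12.03 and 14.4 FPKM.

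**Figure D4:**
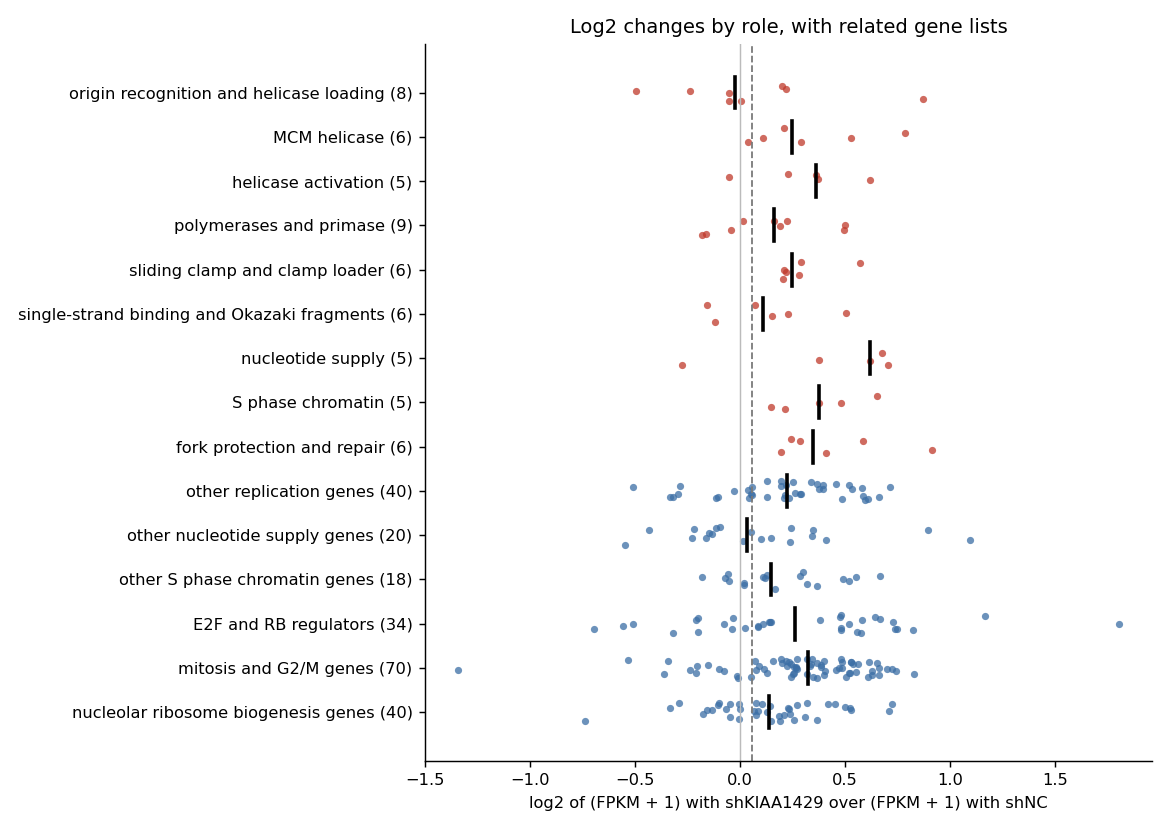
Log2 change of FPKM + 1 with shKIAA1429 over shNC for each gene, in the 9 role groups (red) and 6 related lists (blue), with the number tested in brackets, a black bar at the median of each row and a dashed line at the median of all genes tested. Nucleotide supply has the highest median, 0.62, and origin recognition and helicase loading the lowest, -0.02.

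Members of low and of high level had like changes on the log2 scale used, which understates the change of low genes. The 28 members with the lower mean FPKM had a median log2 change of 0.26 and 5 were higher by more than 0.5. The 28 with the higher mean FPKM had 0.21 and 7. Of genes tested, 9.90% were higher by more than 0.5. With a pseudocount of 0.1, BLM, GINS3, POLD3, PRIM2 and UHRF1 also passed 0.5, all of them among the lower 28. Across the 56 members, as a description over genes that share the same libraries, Spearman's rho of change with GC content of the transcript was -0.05 and with transcript length -0.06. Over genes tested these were -0.30 and 0.19, and removing both trends left the median of the members at 0.27.

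Members on a published S phase list had the higher median. Of a list of 43 genes widely used to score S phase in single cells, added after the values were seen, 25 were members. They had a median of 0.41, 24 were above 0 and 10 were higher by more than 0.5, where 57.3% and 9.90% of genes tested were. The 31 members outside that list had a median of 0.20, 21 were above 0 and 2 were higher by more than 0.5, TK1 and ASF1B. Those 2 of 31 were a smaller share than the 9.90% of genes tested. The 17 other genes of that list with a tested value had a median of 0.30, 15 were above 0, 5 were higher and 1 was lower by more than 0.5. Of genes tested, 57.3% were above 0, 9.90% were higher and 6.12% were lower by more than 0.5. WDR76 and DSCC1 were the highest of the 17 at 0.60 and 0.71. UBR7 was the lowest, at 5.20 and 2.10 FPKM, a log2 change of -0.999.

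Some replication genes start close to a gene on the opposite strand, which gives a neighbor with shared DNA around the start. A start within 1000 bases on the other strand was found for 17 members, and 16 of these neighbors were tested. The members of the 16 pairs had a median log2 change of 0.20 and the neighbors 0.03. Of the neighbors 9 were above 0, where 57.3% of genes tested were, and the member lay above its neighbor in 11 pairs. Of the 16 neighbors 0 were past 0.5 in either direction, where 9.90% of genes tested were higher and 6.12% lower.

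PCNA and CDS2 start 160 bases apart, and CDS2, a lipid enzyme gene, stood at 7.26 and 7.01 FPKM, a log2 change of -0.04 against 0.57 for PCNA. TK1 and AFMID start 84 bases apart, and AFMID stood at 5.99 and 5.77 FPKM, a log2 change of -0.05 against 0.68. The CDC45 pair was closer in value, with UFD1 at 3.60 and 4.92 FPKM and a log2 change of 0.36 against 0.62. The neighbor lay above the member in the pairs of ORC1, ORC4, ORC6, MCM4 and RNASEH2A. The neighbor of ORC6, VPS35, stood at 19.1 and 21.7 FPKM, a log2 change of 0.17 against -0.24.

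**Figure D5:**
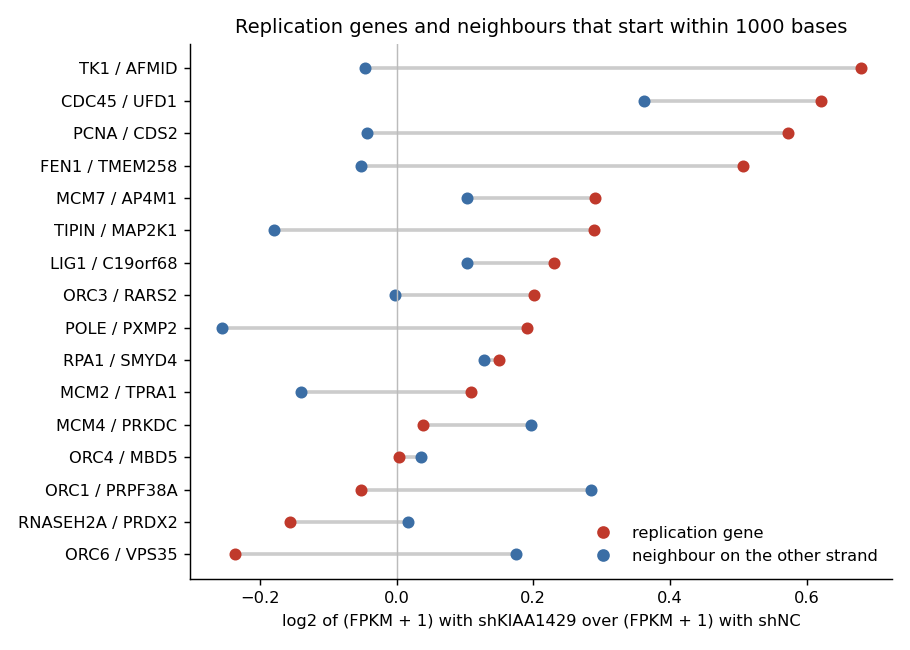
Log2 change of FPKM + 1 with shKIAA1429 over shNC for 16 replication genes (red) and the gene on the other strand that starts within 1000 bases (blue), 1 pair per row. The 16 neighbors have a median of 0.03 and lie within 0.5 of 0, and the members reach 0.68 for TK1.

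Other genes of the replication pathway showed a similar range. Of 40 tested, 32 (80%) were above 0 and 8 (20%) were higher by more than 0.5, against 57.3% and 9.90% of genes tested. Only 1, POLD4, was lower by more than 0.5, where 6.12% of genes tested were, and the median was 0.23. DSCC1, of an alternative clamp loader, stood at 1.14 and 2.51 FPKM, TOPBP1, which activates ATR and helps start replication, at 6.50 and 10.9 FPKM, and TRAIP, a ubiquitin ligase that unloads the helicase, at 1.09 and 2.19 FPKM. POLD4, the small subunit of polymerase delta, stood at 9.71 and 6.52 FPKM, a log2 change of -0.51, and LIG3 and RNASEH1 had -0.33 and -0.32.

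Further nucleotide supply genes, mostly of the purine, pyrimidine and folate routes, had a median of 0.03 over 20 genes, which turned to -0.02 when centered. RRM2B, a reductase subunit induced by p53 and not by S phase, stood at 8.22 and 18.8 FPKM, a log2 change of 1.10. MTHFD2, a mitochondrial folate enzyme, and NME1, a nucleoside diphosphate kinase, had 0.90 and 0.41. IMPDH2, of guanine nucleotide synthesis, stood at 86.7 and 58.9 FPKM, a log2 change of -0.55, and SHMT1 and DCK had -0.43 and -0.23.

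Further S phase chromatin genes had a median of 0.15 over 18 genes. Of these 3 (16.7%) were higher by more than 0.5, against 9.90% of genes tested. The 3 were HJURP, NPAT and ATAD2, at 0.67, 0.55 and 0.52 on the log2 scale, and NPAT is the activator of histone genes. SSRP1, a subunit of the FACT histone chaperone, had -0.18, and ASF1A, the paralog of ASF1B, stood at 7.22 and 6.81 FPKM, a log2 change of -0.07. LSM10, of the machinery that processes histone messages, had -0.06.

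Regulators of the E2F and RB pathway had a median of 0.26 over 34 genes, with 12 higher and 3 lower by more than 0.5. The 12 were 35.3% of those tested in the list, against 9.90% of genes tested, and 6.12% of genes tested were lower. E2F1, an activator of replication genes, stood at 2.98 and 5.68 FPKM, and E2F7, a repressor that E2F1 induces, at 4.32 and 17.6 FPKM, a log2 change of 1.81. CCND1, the cyclin that with CDK4 or CDK6 acts on RB, stood at 42.4 and 96.6 FPKM, and CDK2 at 8.98 and 16.7 FPKM. E2F3, also an activator, was lower, at 6.72 and 3.76 FPKM, as were the CDK inhibitors CDKN1C and CDKN2C with log2 changes of -0.56 and -0.51. CDKN1A, the most abundant CDK inhibitor of the list, was higher, at 91.0 and 151.3 FPKM, a log2 change of 0.73.

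Mitosis and G2/M genes, of a later phase of the cycle, had a median of 0.33 over 70 genes, with 58 above 0, 19 higher and 2 lower by more than 0.5. Those above 0 were 82.9% and those higher 27.1%, against 57.3% and 9.90% of genes tested, and 6.12% of genes tested were lower. ECT2, KIF11 and NDC80, which act in cytokinesis and on the spindle, had log2 changes of 0.83, 0.74 and 0.73. FOXM1, a transcription factor for G2 genes, stood at 33.2 and 12.5 FPKM, a log2 change of -1.34, and CKAP2 and SPC24 had -0.53 and -0.36. Higher values were thus not confined to S phase genes.

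Nucleolar ribosome biogenesis genes, many of them known MYC targets, had a median of 0.14 over 40 genes, with 5 higher and 1 lower by more than 0.5. The 5 were 12.5% of the list, near the 9.90% of genes tested, and 6.12% of genes tested were lower. UTP15, WDR43 and GNL2 had log2 changes of 0.72, 0.71 and 0.53. UBTF, a factor for RNA polymerase I, stood at 26.5 and 15.5 FPKM, a log2 change of -0.74, and NOP14 and NPM1 had -0.33 and -0.29.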

How the data were processed

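Poly(A) RNA of 1 ACHN library per group was sequenced in pairs by a strand-marking protocol. The values were deposited as FPKM, which the authors made before deposit. The submitters' processing notes name cutadapt 1.9, HISAT2 2.0.4, StringTie 1.3.4d, DESeq2 and edgeR, without roles. The genome build is not given in the sources used here. Listed genes had at least 0.500 FPKM in a library.

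For 7 symbols on several rows the row with the highest mean was kept. A gene was tested where its FPKM averaged 1 or more, on log2 of (FPKM + 1), in Python 3.11.15, pandas 2.3.3, NumPy 2.4.6 and SciPy 1.17.1. Calls were checked on simulated data with changes of 1.5 in either direction, in genes with a control level of at least 5 FPKM. The GC correction was checked on a simulated trend. Changes near 0.5 were not simulated. A limit of 0.5 was used beside the study's 1.5. Members, lists, limits and pairs were chosen with earlier results of these data known. Named genes were all members, the 3 highest and 3 lowest of each other list, and VIRMA, MYC, ACTB and GAPDH. Ratio pairs, E2F1, CDKN1A, WDR76, UBR7, and neighbor and overlap genes were named after values were seen. The alternatives were another pseudocount, centering, 2 rescalings, filters, summed rows, overlapping members left out, a GC and length correction and another limit. A search of protein motifs was not run. A marker gene is not reported here.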

Additional observations from a re-analysis of the deposited data

How the results depend on the processing

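The median over the members stayed above 0 in each alternative run. With a pseudocount of 0.1, 17 members were higher by more than 0.5 (30.4%, against 13.9% of genes tested). Rescaling without mitochondrial genes also gave 17 (30.4%, against 13.7% of genes tested). With each library rescaled to a sum of 1000000, which moved the median of all genes by 0.18, the median of the members was 0.42, 21 members were higher by more than 0.5 (37.5%, against 23.9% of genes tested) and their summed level was 42.6% higher. A limit of 1 left 0 members higher, where 1.61% of genes tested were higher. CDT1 passed the lower limit, as 1 member, with a pseudocount of 0.1, when centered on the median of all genes and when rescaled without mitochondrial genes. Without FEN1 and the other members that overlap a gene on the same strand, 11 of 52 were higher by more than 0.5 (21.2%, against 9.90% of genes tested). Centering removed FEN1 and MCM5 from those past 0.5. The sign turned in at least 1 alternative for MCM4, MCM10, ORC1, ORC2, ORC4, POLA2, POLD2, PRIM1, RNASEH2A and RPA2. The median of the polymerase and primase genes was -0.07 where genes had to average 5 FPKM, that of the origin genes 0.10 under the same filter and 0.15 when rescaled with mitochondrial genes, and that of further nucleotide supply genes -0.02 when centered. The cause was not tested. No paired analysis was possible because each group has 1 library. Depth is unknown, and 1 library per group gives no estimate of the spread.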
